A study of Homo sapiens with 12 samples.

Results

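The regulators of G-protein signaling (RGS) examined here were *RGS1*, *RGS2*, *RGS3*, *RGS10*, *RGS12*, *RGS14*, *RGS16*, *RGS18* and *RGS19*. They were found by matching gene symbols to the identifiers of the deposited count table, which gave 9 of its 58288 genes. RNA came from HL-60/S4, an established human promyelocytic leukemia cell line, in 12 libraries that form 4 groups of 3, and each library came from a separate flask. Promyelocytes were undifferentiated cells that received water as vehicle, or TNF-α at 16 ng/mL, for 2 h. Granulocytes were the same line after 4 days in 1 µM all-trans retinoic acid (ATRA), followed by the same vehicle or TNF-α treatment, with ATRA still in the medium. All 4 groups were kept in calcium supplemented medium during the treatment and were at passage 8. Promyelocytes and granulocytes were treated in independent experiments, and undifferentiated cells were resuspended at a higher density than differentiated cells before treatment. For a level or a TNF-α response that differs between the cell types, cell type and experiment cannot be told apart. TNF-α was therefore compared with vehicle within each cell type, and levels between the cell types were described without a test.

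A heterotrimeric G-protein is switched on when a receptor makes its α subunit exchange GDP for GTP, and it is switched off when the α subunit hydrolyzes that GTP. RGS proteins bind the active α subunit and speed up the hydrolysis, which shortens the signal that a receptor sends. In leukocytes many of these receptors are chemokine and chemoattractant receptors coupled to Gi. *RGS1*, *RGS2*, *RGS3*, *RGS16* and *RGS18* belong to the R4 subfamily, whose proteins are mostly small and consist of little more than the RGS domain. *RGS10*, *RGS12* and *RGS14* belong to the R12 subfamily, in which RGS12 and RGS14 also carry Ras-binding domains and a GoLoco motif that holds inactive Gi α subunits. *RGS19*, also known as GAIP, belongs to the RZ subfamily, which has a cysteine-rich stretch near its start.

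Of the R4 members, *RGS18*, *RGS1* and *RGS2* lay on the plus strand of chromosome 1 (hg38) within a stretch of 653.827 kb. This stretch held 5 *RGS* genes in the order *RGS18*, *RGS21*, *RGS1*, *RGS13* and *RGS2*, separated by gaps of 131.176, 208.441, 56.106 and 148.732 kb. The bases upstream of the members of this cluster are shown because these neighbors include the largest increase (*RGS1*) and the largest decrease (*RGS18*) among the members in granulocytes, beside *RGS2*, which did not pass the threshold. Each window runs from 250 to 51 bases before the RefSeq start of the transcript (GRCh38.p14, plus strand), and capitals mark a match to the NF-κB consensus.
RGS1, chr1:192575523-192575722: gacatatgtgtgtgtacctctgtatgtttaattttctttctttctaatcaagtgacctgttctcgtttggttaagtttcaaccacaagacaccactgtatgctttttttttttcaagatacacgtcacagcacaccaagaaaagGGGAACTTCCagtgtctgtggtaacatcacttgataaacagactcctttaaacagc
RGS18, chr1:192158212-192158411: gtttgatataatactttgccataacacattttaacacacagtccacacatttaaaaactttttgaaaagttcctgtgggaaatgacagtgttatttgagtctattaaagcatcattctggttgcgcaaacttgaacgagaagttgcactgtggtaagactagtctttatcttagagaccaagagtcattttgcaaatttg
RGS2, chr1:192808789-192808988: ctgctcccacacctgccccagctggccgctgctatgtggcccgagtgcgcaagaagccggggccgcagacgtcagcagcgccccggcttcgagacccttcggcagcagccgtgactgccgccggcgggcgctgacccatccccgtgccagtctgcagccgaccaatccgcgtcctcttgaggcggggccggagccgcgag
The *RGS1* match, GGGAACTTCC, lay 106 to 97 bases before the start. The windows of *RGS1* and *RGS18* had a GC content of 38.0% and 34.5% with 2 CpG each, whereas that of *RGS2* had 73.0% with 23 CpG. All 9 members were matched to the RefSeq table, with 19 windows in all, and the only other match among them was GGGAGGTTCC, 69 to 60 bases before an internal start of *RGS12*. Both strands were searched, and 7.98% of 35116 windows of this length in the table held a match to this consensus. The AP-1 motif TGANTCA was held by 5.27% of the windows and by none of the 19 windows of the members. A match describes letters in a window and says nothing of whether the factor was bound.

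The libraries held between 22829189 and 31895061 counted read pairs, with a median of 28233190. The cell types were checked against marker lists. All 6 granulocyte markers, which included *CYBB* and *ITGAM*, had at least 10 counts in every library, and their summed level in CPM (counts scaled to a common library size) was 155 to 164 in promyelocytes with vehicle and 262 to 278 with TNF-α, and 4693 to 4955 and 5216 to 5556 in granulocytes. The 5 promyelocyte markers, mostly *MPO*, summed to 7316 to 8142 CPM in promyelocytes with vehicle and 6062 to 6962 CPM with TNF-α. In granulocytes they summed to 2132 to 2344 and 2144 to 2351 CPM, with *ELANE* at or under 3 counts in each library. Both marker sums thus moved with TNF-α in promyelocytes, and the granulocyte marker sum in granulocytes, and their part in the responses of the RGS members was not tested. In promyelocytes the granulocyte marker sum was mostly *CYBB*, with a mean of 113 CPM with vehicle and 216 CPM with TNF-α. The lowest of these markers, *FPR1*, had means of 0.702 and 0.723 CPM there, so this rise does not describe the list as a whole. The 5 macrophage markers summed to at most 0.644 CPM in any library. The 6 lymphocyte markers summed to 5.07 to 15.2 CPM, with *CD79A* the highest, and *MS4A1* was at 0 in the granulocyte libraries. Each of the 6 TNF-α response controls, *TNF*, *NFKBIA*, *TNFAIP3*, *ICAM1*, *VCAM1* and *CXCL8*, was increased in both cell types, with log2 fold changes of 1.91 or more in promyelocytes and 2.41 or more in granulocytes. In bulk RNA, fewer cells that express a gene and less RNA per cell cannot be told apart.

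TNF-α changed 5 of the 9 members in promyelocytes, with 2 increased and 3 decreased, and 6 of 9 in granulocytes, with 1 increased and 5 decreased (edgeR quasi-likelihood test, Benjamini-Hochberg adjusted p under 0.05 over all genes tested). Over all genes tested, 14.8% changed in promyelocytes (8.15% increased and 6.65% decreased) and 49.2% in granulocytes (24.4% increased and 24.8% decreased). The members were chosen with earlier results of these data known, so their share beside that of all genes is not a test of the family. All 9 members passed the filter on low counts in both cell types. *RGS1* was increased in both, and *RGS12*, *RGS14* and *RGS19* were decreased in both. *RGS16* was increased in promyelocytes, *RGS10* and *RGS18* were decreased in granulocytes, and *RGS2* and *RGS3* passed the threshold in neither. In promyelocytes the treated and vehicle libraries did not overlap for 5 members, 2 with TNF-α higher and 3 lower, beside 30.9% of all genes tested (13.7% higher and 17.1% lower). In granulocytes they did not overlap for 5 members, 1 higher and 4 lower, beside 55.1% of all genes (28.4% higher and 26.7% lower). The median log2 fold change of the members was -0.22 in promyelocytes and -0.16 in granulocytes, beside -0.01 and -0.00 over all genes tested. With 9 members each median is the value of 1 gene, *RGS3* in promyelocytes and *RGS19* in granulocytes. *RGS3* did not pass the threshold and the *RGS19* call was lost in some alternative fits, so these medians do not show a decrease of the family.

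**Figure D1:**
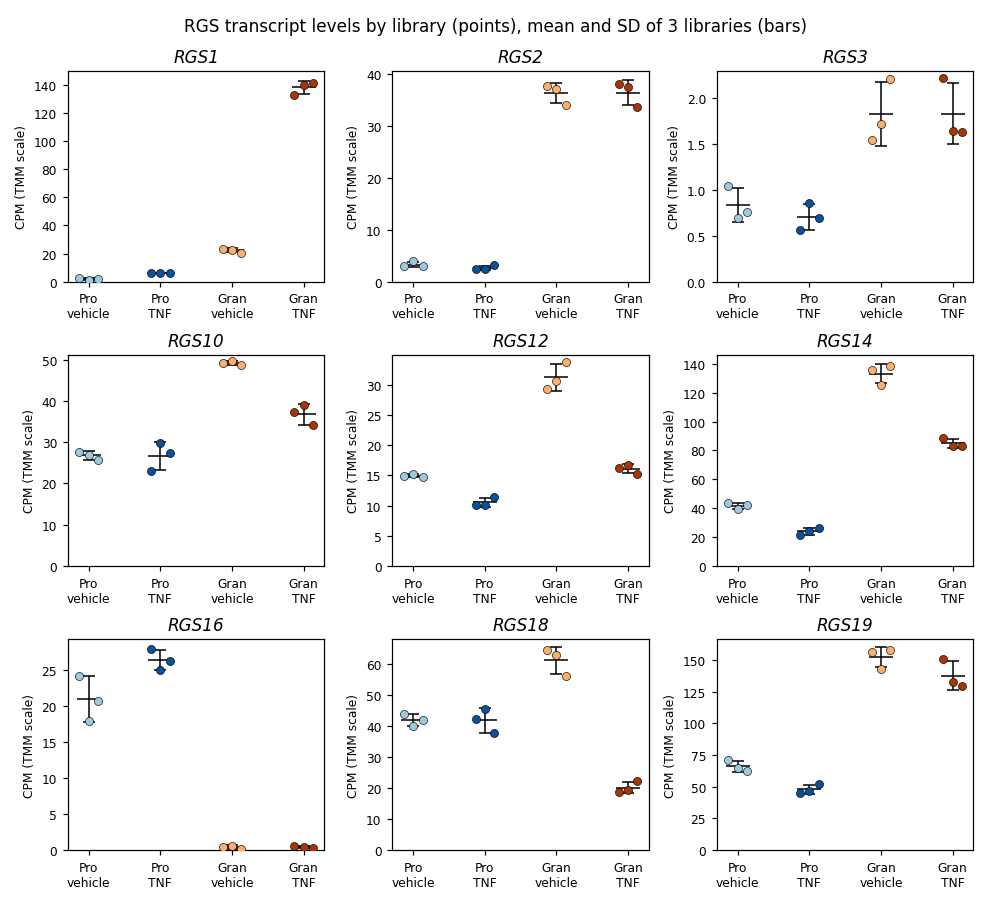
Each panel plots 1 member, with the level in CPM on the TMM scale on a linear vertical axis that starts at 0 and the 4 groups along the horizontal axis (Pro, promyelocytes; Gran, granulocytes). Points are the 3 libraries of a group, and bars give their mean and SD. *RGS1* stands highest in granulocytes with TNF-α, *RGS18* lowest there, and *RGS16* is near 0 in both granulocyte groups.

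*RGS1*, which curbs chemokine receptor signaling in lymphocytes, had the largest response of the members in either cell type. In promyelocytes it stood at 2.65, 1.43 and 1.86 CPM with vehicle (81, 39 and 54 counts) and at 6.47, 6.39 and 6.17 CPM with TNF-α (172, 179 and 196 counts). The groups did not overlap, and the log2 fold change was 1.69 (SE 0.185, adjusted p = 1.11e-06, edgeR), a 3.23-fold increase. In granulocytes *RGS1* stood at 23.6, 22.6 and 20.7 CPM with vehicle and at 133, 140 and 142 CPM with TNF-α. That is a log2 fold change of 2.62 (SE 0.0589, adjusted p = 2.99e-30, edgeR), or 6.15-fold, from a vehicle level that already lay above the promyelocytes treated with TNF-α. All 4 groups were therefore separate, in the order granulocytes with TNF-α, granulocytes with vehicle, promyelocytes with TNF-α and promyelocytes with vehicle. The granulocyte response exceeded the promyelocyte response by 0.97 on the log2 scale (SE 0.167, adjusted p = 7.60e-05, interaction in the edgeR fit of all 12 libraries).

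*RGS18*, an R4 member known from platelets and megakaryocytes, had the largest decrease among the members. With vehicle it stood at 64.6, 63.1 and 56.2 CPM in granulocytes, and with TNF-α at 18.8, 19.5 and 22.3 CPM. The log2 fold change was -1.62 (SE 0.0689, adjusted p = 2.27e-21, edgeR), so that the level was 3.06-fold lower. In promyelocytes it stood at 43.8, 40.1 and 42.2 CPM with vehicle and 42.3, 45.7 and 37.7 CPM with TNF-α. These groups overlapped, and the log2 fold change of 0.02 had a 95% interval of -0.14 to 0.17 (adjusted p = 0.907, edgeR). The responses differed by -1.59 (SE 0.109, adjusted p = 1.63e-11, edgeR interaction). TNF-α treated granulocytes were thus the group with the lowest *RGS18* and vehicle-treated granulocytes the group with the highest, and the promyelocyte groups lay between them without being separate from each other.

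*RGS16*, an R4 member that is itself induced by several inflammatory signals in other cells, was found mainly in promyelocytes. It stood at 24.2, 17.98 and 20.7 CPM with vehicle and at 27.9, 25.1 and 26.3 CPM with TNF-α in promyelocytes. The log2 fold change was 0.35 (SE 0.0920, adjusted p = 0.0115, edgeR), or 1.28-fold, but this call was lost without vehicle replicate 2, the lowest library (0.26, adjusted p = 0.0993). In granulocytes *RGS16* had 12, 19 and 3 counts with vehicle and 12, 12 and 5 counts with TNF-α, out of at least 22829189 counts per library. Its log2 fold change there was 0.00 with a 95% interval of -0.998 to 1.007, so a change of up to about that size was not detectable with these libraries. The difference between the cell types in the response was likewise not resolved (-0.31, adjusted p = 0.699, edgeR interaction).

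*RGS2*, which acts preferentially on Gq α subunits, differed between the cell types in level but did not pass the threshold in either response. In promyelocytes it stood at 2.94, 3.90 and 3.11 CPM with vehicle and 2.44, 2.46 and 3.15 CPM with TNF-α, which overlapped (log2 fold change -0.27, 95% interval -0.66 to 0.12, adjusted p = 0.391, edgeR). In granulocytes it stood at 37.6, 37.2 and 34.0 CPM with vehicle and 38.0, 37.5 and 33.6 CPM with TNF-α. The interval of that log2 fold change, -0.14 to 0.12 around -0.01, was the narrowest of those that spanned 0 in granulocytes. *RGS3*, which makes both short and long proteins, had the lowest mean level of the members for its exon length in every group. In both granulocyte groups it overlapped with *RGS16* on that scale, although *RGS16* had fewer counts. *RGS3* had 19 to 32 counts per library in vehicle-treated and 15 to 24 in TNF-α treated promyelocytes. In granulocytes it had 40 to 66 counts with vehicle and 36 to 49 with TNF-α. Its log2 fold changes of -0.22 (95% interval -0.92 to 0.48) and -0.02 (95% interval -0.50 to 0.46) had adjusted p values of 0.722 and 0.949 (edgeR).

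The R12 members *RGS14* and *RGS12*, both scaffolds that join Gi α subunits to Ras proteins, were decreased by TNF-α in both cell types. *RGS14* fell from 43.7, 39.6 and 42.0 CPM to 21.5, 24.0 and 26.4 CPM in promyelocytes, and from 136, 125 and 139 CPM to 88.7, 83.0 and 83.2 CPM in granulocytes. The groups were separate in both, with log2 fold changes of -0.78 (SE 0.0778, adjusted p = 3.25e-07) and -0.66 (SE 0.0517, adjusted p = 1.34e-13, edgeR). The difference between those responses, 0.15, had a 95% interval of -0.04 to 0.34 and did not pass the threshold (adjusted p = 0.274, edgeR interaction). *RGS12* fell from 14.9, 15.2 and 14.7 CPM to 10.1, 10.1 and 11.4 CPM in promyelocytes, a 1.39-fold decrease (log2 fold change -0.48, SE 0.0940, adjusted p = 0.00125, edgeR). In granulocytes it fell 1.96-fold, from 29.3, 30.7 and 33.8 CPM to 16.3, 16.8 and 15.3 CPM (log2 fold change -0.97, SE 0.0748, adjusted p = 1.03e-13, edgeR). The *RGS12* responses differed by -0.46 (SE 0.116, adjusted p = 0.00424, edgeR interaction), with the larger decrease in granulocytes.

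*RGS10*, the smallest R12 member and one known to dampen inflammatory signaling in microglia and macrophages, was decreased in granulocytes. There it stood at 49.2, 49.8 and 48.6 CPM with vehicle and 37.2, 39.1 and 34.1 CPM with TNF-α. The log2 fold change was -0.43 (SE 0.0602, adjusted p = 1.59e-07, edgeR), a 1.35-fold decrease. In promyelocytes it stood at 27.7, 26.9 and 25.7 CPM with vehicle and 23.1, 29.7 and 27.4 CPM with TNF-α, so that the treated libraries lay on both sides of the vehicle libraries (log2 fold change 0.02, 95% interval -0.16 to 0.20, adjusted p = 0.901, edgeR). The responses differed by -0.42 (SE 0.107, adjusted p = 0.00498, edgeR interaction).

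*RGS19*, the RZ member, had the highest mean level of the 9 for its length in every group. In TNF-α treated promyelocytes its libraries overlapped with those of *RGS10* (23.6 ± 1.88 against 21.3 ± 2.69 RPKM, mean ± SD). *RGS19* fell from 70.99, 64.9 and 62.7 CPM to 44.9, 46.4 and 52.1 CPM in promyelocytes (log2 fold change -0.44, SE 0.0677, adjusted p = 7.96e-05, edgeR). In granulocytes it stood at 156, 143 and 158 CPM with vehicle and at 150, 133 and 129 CPM with TNF-α, and the groups overlapped. The log2 fold change there was -0.16 (SE 0.0536, adjusted p = 0.0116, edgeR), but it no longer passed the threshold without vehicle replicate 3, TNF-α replicate 2 or TNF-α replicate 3 (-0.13, -0.13 and -0.12, adjusted p from 0.0656 to 0.109) or when all 12 libraries shared 1 fit (-0.15, adjusted p = 0.0719). The responses differed by 0.32 (SE 0.0950, adjusted p = 0.0141, edgeR interaction). *RGS19* has the most GC-rich exons of the members (65.1% GC), and once trends with GC content and exon length had been removed from every library its log2 fold change in granulocytes was -0.36 and the difference between the responses was 0.02 (adjusted p = 0.879).

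**Figure D2:**
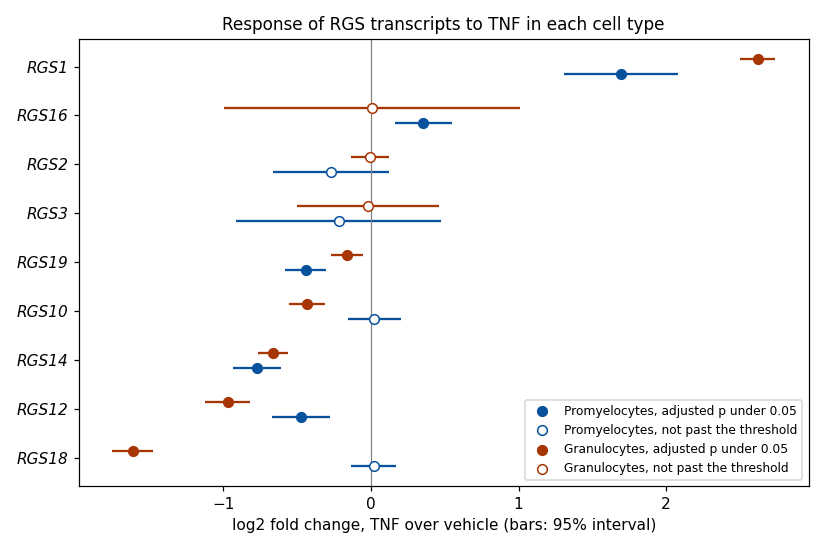
Log2 fold changes of TNF-α over vehicle are plotted on the horizontal axis for each member, in promyelocytes (blue) and granulocytes (red), with 95% intervals as bars and filled points where the adjusted p was under 0.05. *RGS1* lies to the right in both cell types, and *RGS18* lies at 0.02 in promyelocytes and at -1.62 in granulocytes.

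In total, the responses of 5 of the 9 members differed between the cell types, 2 toward a higher value in granulocytes (*RGS1* and *RGS19*) and 3 toward a lower one (*RGS10*, *RGS12* and *RGS18*). Over all genes in this fit, 24.0% differed, 14.1% toward a higher and 9.88% toward a lower value. *RGS2*, *RGS3*, *RGS14* and *RGS16* did not pass the threshold, and for *RGS3* and *RGS16* the 95% intervals were wide (-0.57 to 1.05 and -1.29 to 0.67).

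Vehicle-treated granulocytes held more transcript than vehicle-treated promyelocytes for 8 of the 9 members, and the libraries of the cell types did not overlap for any of the 9. Over all genes in the fit of 12 libraries, 74.4% did not overlap either, with 37.3% higher and 37.1% lower in granulocytes. The ratio of mean CPM was 11.3 for *RGS1* and 10.9 for *RGS2*, followed by 3.19 for *RGS14*, 2.30 for *RGS19*, 2.19 for *RGS3*, 2.09 for *RGS12*, 1.84 for *RGS10* and 1.46 for *RGS18*. *RGS16* went the other way and was 52.9-fold lower in granulocytes, at 0.397 ± 0.270 CPM against 21.0 ± 3.13 CPM in promyelocytes (mean ± SD, n = 3). For 7 of the 8 members that were higher in granulocytes, the TNF-α treated granulocytes also lay above both promyelocyte groups. *RGS18* was the exception, because its level in TNF-α treated granulocytes lay below that of both promyelocyte groups. For *RGS12* the gap was small, with 15.3 CPM in the lowest TNF-α treated granulocyte library and 15.2 CPM in the highest vehicle-treated promyelocyte library. The share of all genes with this order was not computed, so the count of members describes these genes only.

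To compare members with each other, levels were divided by exon length (RPKM), summed over all merged exons of a gene. For *RGS3* these were 36 merged exons with 13793 bases, and its place in the order depends on that length. In vehicle-treated promyelocytes *RGS19* came first at 32.6 ± 2.13 RPKM, followed by *RGS10* at 21.4 ± 0.798, *RGS18* at 14.98 ± 0.669, *RGS14* at 11.001 ± 0.546 and *RGS16* at 8.65 ± 1.29 RPKM (mean ± SD, n = 3). The remaining 4 members were at or below 1.58 RPKM, and each neighboring pair in this order was separate. The 9 members summed to 91.9 ± 4.85 RPKM there and to 80.7 ± 3.78 RPKM with TNF-α. In granulocytes they summed to 197 ± 4.77 RPKM with vehicle and 179 ± 6.66 RPKM with TNF-α, with *RGS19* at 75.1 ± 4.02 and 67.8 ± 5.55 RPKM. In granulocytes *RGS1* went from 2.55 to 2.86% of this sum with vehicle to 17.4 to 19.9% with TNF-α, and from sixth place to the second. *RGS18* went from 10.1 to 11.7% of the sum to 3.61 to 4.598%, and *RGS14* from 17.2 to 18.5% to 12.2 to 12.7%. In promyelocytes *RGS19* went from a mean of 35.5% of the sum with vehicle to 29.2% with TNF-α, *RGS14* from 11.98 to 7.81% and *RGS16* from 9.38 to 13.5%. *RGS1* was 0.391 to 0.659% of the sum with vehicle and 1.81 to 2.06% with TNF-α there, where its level could not be separated from that of *RGS2*. *RGS3* and *RGS16* were the lowest pair in both granulocyte groups and overlapped with each other.

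**Figure D3:**
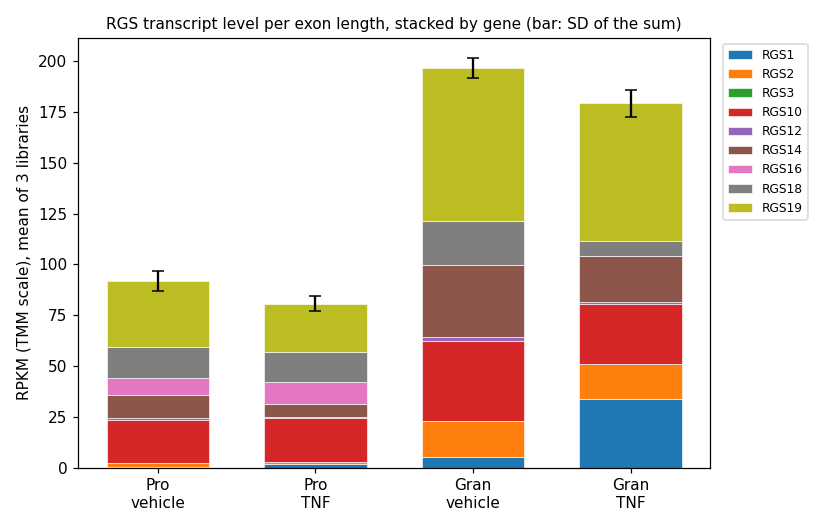
Mean RPKM (level per kilobase of exon, TMM scale, n = 3) of the 9 members is stacked on a vertical axis that starts at 0 for each of the 4 groups, with a bar for the SD of the sum. The granulocyte columns reach 197 and 179 RPKM against 91.9 and 80.7 RPKM in promyelocytes, and the *RGS1* segment at the base widens in granulocytes with TNF-α.

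The list of other *RGS* genes held 15 genes, which included the RGS-binding proteins *RGS7BP* and *RGS9BP*, and they were little expressed. Of these, 2 passed the filter in promyelocytes (*RGS5* and *RGS9BP*) and 4 in granulocytes, and *RGS8* was the 1 that passed the threshold, in granulocytes. *RGS8*, a member of the R4 subfamily, lies 37.407 kb from *RGS16* on chromosome 1, and these neighbors had opposite patterns over the cell types. *RGS8* had 2, 0 and 1 counts in vehicle-treated and 1, 0 and 2 counts in TNF-α treated promyelocytes, at or under 3 counts in each library. In granulocytes it had 93, 95 and 100 counts with vehicle and 11, 35 and 21 counts with TNF-α, a log2 fold change of -1.87 (SE 0.248, adjusted p = 5.53e-08, edgeR). Within the cluster of *RGS18*, *RGS1* and *RGS2*, *RGS21* had 0 counts in all 12 libraries. *RGS13* had 0 to 9 counts in promyelocyte libraries, 20, 25 and 28 counts in granulocytes with vehicle and 19, 54 and 26 with TNF-α, and it did not pass the threshold in granulocytes (log2 fold change 0.65, adjusted p = 0.0885, edgeR). Over these 5 neighbors in granulocytes, there was 1 decrease, 1 increase, 1 gene without counts and 2 genes that did not pass the threshold. Of all genes tested in granulocytes, 24.4% were increased and 24.8% decreased, so this mix is not particular to the cluster.

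Around the RGS proteins, the lists of other G-protein signaling genes held 89 genes. In promyelocytes 49 of them were tested, of which 5 were increased and 9 decreased, beside 8.15% and 6.65% of all genes tested. In granulocytes 51 were tested, of which 18 were increased and 15 decreased, beside 24.4% and 24.8% of all genes tested. These shares are the background for each of the shorter lists too. Their median log2 fold change was -0.11 in promyelocytes and 0.05 in granulocytes. Among the α subunits on which RGS proteins act, *GNA15*, a Gq family member of blood cells, was increased in both cell types (log2 fold change 0.60, adjusted p = 3.23e-05, and 1.05, adjusted p = 6.82e-18, edgeR). Of the 8 α subunits tested in promyelocytes 2 were increased and 1 decreased, and of the 7 tested in granulocytes 3 were increased. *GNAQ* (0.17) and *GNA12* (-0.30) were the others in promyelocytes, and *GNA13* (0.15) and *GNAI3* (0.13) in granulocytes. The 10 β and γ subunits tested gave 2 decreases in promyelocytes, and 5 increases and 2 decreases in granulocytes, where their log2 fold changes ran from -0.74 to 1.36. Among those named by size of change, *GNB5*, the β subunit that pairs with RGS proteins of the R7 subfamily, was decreased in both cell types (-0.36 and -0.67), *GNG2* was decreased in promyelocytes (-0.29), and in granulocytes *GNG7* was decreased (-0.74) and *GNG5* increased (0.35).

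Other proteins that carry an RGS domain gave 1 decrease among 6 tested in promyelocytes, and 2 increases and 2 decreases among 6 in granulocytes. Of all genes tested, 14.8% changed in either direction in promyelocytes and 49.2% in granulocytes. *AXIN1*, the scaffold of the β-catenin destruction complex, was decreased in promyelocytes (log2 fold change -0.40, adjusted p = 0.000405) and increased in granulocytes (0.45, adjusted p = 1.62e-07, edgeR), and these responses differed (0.89, adjusted p = 3.21e-07, edgeR interaction). The sorting nexin *SNX13* was decreased in granulocytes (-0.30). Receptor kinases and arrestins, which switch off the receptors upstream of the G-protein, gave 2 increases and 2 decreases among 7 tested in promyelocytes, and 2 increases and 3 decreases among 7 in granulocytes. *GRK3* was increased in both (0.42 and 0.52), *GRK6* (-0.24) and *ARRB2* (-0.21) were decreased in promyelocytes, and in granulocytes *ARRB1* was increased (0.70) and *GRK5* decreased (-0.86). The 5 accessory proteins tested in promyelocytes had log2 fold changes between -0.16 and 0.01, and in granulocytes 2 of 6 were increased and 2 decreased, among them the exchange factors *RIC8A* (0.39) and *RIC8B* (-0.29) and the GoLoco protein *GPSM2* (-0.38). Effectors gave 1 increase and 3 decreases among 11 tested in promyelocytes, and 4 increases and 5 decreases among 11 in granulocytes. *PIK3R5*, a regulatory subunit of the phosphoinositide 3-kinase that βγ subunits activate, was increased in both (0.74 and 0.62). *PLCB2* (-0.43) and *ADCY9* (-0.34) were decreased in promyelocytes, and *ADCY3* (0.71) and *PLCB3* (0.62) were increased in granulocytes.

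**Figure D4:**
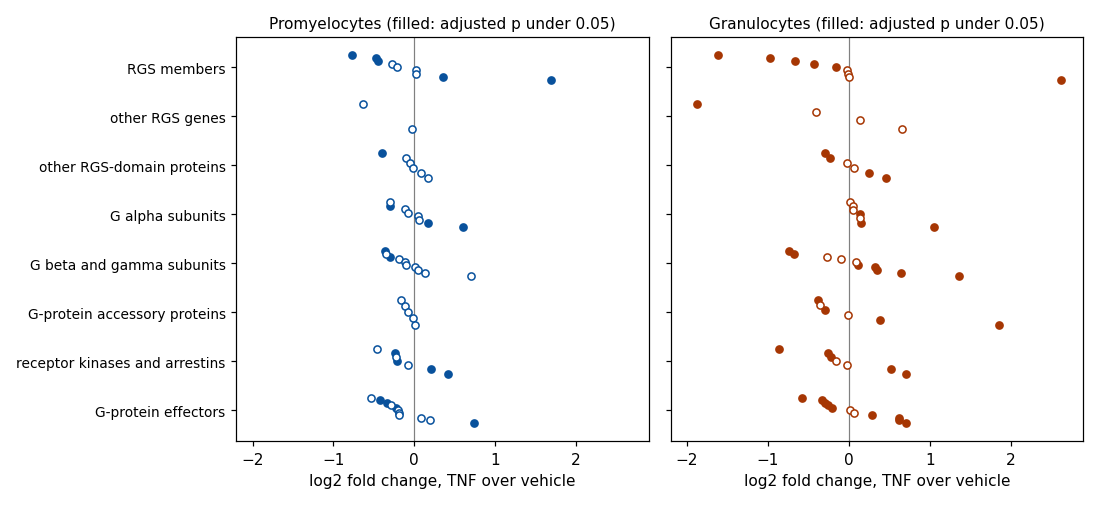
Log2 fold changes of TNF-α over vehicle (horizontal axis) are plotted for each tested gene of the 9 RGS members and the 7 other lists (rows), in promyelocytes on the left and granulocytes on the right, with filled points where the adjusted p was under 0.05. *RGS1* is the rightmost point in both panels, at 1.69 and 2.62.

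The genes whose pattern over the 12 libraries was most like that of each member were found among 13801 genes with a mean of at least 1 CPM, by the root mean square difference of log2(CPM + 0.5) after each gene was centered on its own mean. For *RGS1* they were *LAMB3*, a laminin chain, at 0.292, and *LHX2*, a LIM homeobox factor, at 0.369, where *RGS1* itself varied by 2.18 about its mean. *LAMB3* had group means of 2.17 and 5.54 CPM in promyelocytes without and with TNF-α, and 30.04 and 193 CPM in granulocytes. For *RGS18* they were *NUDT6* (0.174) and *MLLT3* (0.174), a subunit of the super elongation complex, against a spread of 0.579 for *RGS18*. The pattern of *RGS16* was nearest to the fatty acid desaturase *FADS1* (0.321) and the adenylate kinase *AK4* (0.333), both of them lower in granulocytes, and that of *RGS2* to the leukocyte tetraspanin *CD37* (0.112) and *CEP295NL* (0.127). *RGS14* was nearest to the myeloid genes *LILRA2* (0.129) and *PRAM1* (0.138), *RGS12* to *SMIM3* (0.0879) and *BSG-AS1* (0.106), and *RGS19* to *MOB3A* (0.0794) and *ARHGAP30* (0.0982). The nearest genes of *RGS10*, *SLC35E2A* (0.0775) and *SLC35E2B* (0.0851), are paralogs whose counts are uncertain where reads fit both, and those of *RGS3* were *ADPGK-AS1* (0.103) and *PDPK2P* (0.113). These values describe likeness over libraries of which the 4 groups set most of the spread.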

How the data were processed

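The authors depleted ribosomal RNA, sequenced paired ends, aligned them with STAR 2.5.3a to hg38 and counted read pairs on GENCODE 27 genes with featureCounts 1.5.2, and the raw counts are what they deposited, with no normalization. Per the file headers, counting was set for reverse-stranded libraries, and primary alignments with both ends mapped and not chimeric were counted. Symbols were matched to 57577 of 58288 identifiers. No exon of a member overlapped another gene.

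The 6 libraries of a cell type formed 1 fit (edgeR 4.0.16, R 4.3.3, TMM scaling, filterByExpr with minimum count 10 and minimum total 15, quasi-likelihood test, Benjamini-Hochberg adjustment over all genes tested, threshold 0.05). The difference between responses was the interaction in a fit of 12 libraries, so its estimate can differ slightly from the difference of the separate fits. CPM were counts scaled to TMM library sizes over all 12 libraries, and RPKM were CPM per kilobase of exon. Depth per library ranged from 22829189 to 31895061 counts, and 3 counts were taken as the floor, which covers counting error only. Precision was set by 3 libraries per group. These were separate flasks of the same experiment, so SE and p values describe spread between flasks, not between repeated experiments. An exact permutation of 3 against 3 cannot go below 0.1, so single values were tested only within the fits across all genes.

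Named genes were all 9 members, up to 3 genes per other list and cell type with the largest change among those past the threshold and no less than 1 in mean log2 CPM, and 2 genes of most similar pattern per member. *RGS13* and *RGS21* were added as chromosomal neighbors. The members and lists were chosen with earlier results of these data known. Promoter windows came from RefSeq (GRCh38.p14). Alternatives were DESeq2's size factors, DESeq2 1.42.0, no filter, a replicate block, 1 fit of all libraries, removal of GC content and length trends (mgcv 1.9.3), 0.01 as threshold and each library left out in turn. For levels between the cell types they were DESeq2's size factors, library totals alone and leaving out each vehicle library. The procedure was tested on simulated data.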

Additional observations from a re-analysis of the deposited data

Results flagged for a closer look

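The responses of 5 members to TNF-α differed between granulocytes and promyelocytes in a test of the difference itself (interaction in the edgeR fit of 12 libraries, adjusted over all genes). Since the cell types were treated in independent experiments, cell type and experiment cannot be told apart in these differences. The granulocyte response minus the promyelocyte response was -1.59 for *RGS18* on the log2 scale (95% interval -1.82 to -1.37, adjusted p = 1.63e-11), with granulocytes lower in 3 of 3 treated libraries and promyelocytes overlapping. It was 0.97 for *RGS1* (95% interval 0.63 to 1.32), an increase in both cell types that was larger in granulocytes. For *RGS12* it was -0.46 (95% interval -0.70 to -0.22), a decrease in both that was larger in granulocytes, and for *RGS10* it was -0.42 (95% interval -0.64 to -0.20). For *RGS19* it was 0.32 (95% interval 0.13 to 0.52), a decrease that was smaller in granulocytes, and this difference was 0.02 once trends with GC content and gene length were removed. Groups of 3 libraries are too small for a search for single libraries that stand apart.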

How the results depend on the processing

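The 27 member results (9 members, each with a response in 2 cell types and their difference) were refitted 369 times in all under the alternatives. In 360 of those fits the side of the threshold stayed as reported, in 9 a call was lost, and none reversed a call. Values that were not past the threshold did change sign in some fits, such as the *RGS14* difference (-0.12 with GC content and length trends removed). These fits leave out the stricter threshold of 0.01, which gave 4 changed members in promyelocytes, 5 in granulocytes and 4 for the difference, against 5, 6 and 5. The 9 concerned *RGS16* in promyelocytes (1 fit of all 12 libraries, 0.33, adjusted p = 0.0545, and without vehicle replicate 2), *RGS19* in granulocytes (4 fits) and the *RGS19* difference (GC content and length trends removed, and without granulocyte vehicle replicate 2 or TNF-α replicate 1, adjusted p = 0.0563 and 0.0588). The causes were not tested. Leaving out 1 library gave 4 to 5 changed members in promyelocytes, 5 to 6 in granulocytes and 4 to 5 for the difference. The separation of vehicle levels held for all 9 members under each scaling and without each vehicle library. Of the other G-protein signaling genes in promyelocytes, 14 were called as reported, 9 at a threshold of 0.01, 9 with the replicate block and 8 to 14 without 1 library (8 without vehicle replicate 2), whereas in granulocytes the count was 33 as reported and 29 to 33 without 1 library. Same-numbered libraries did not deviate together (correlations from -0.105 to -0.006), so no shared replicate effect was seen. Deviations from means of 3 libraries cannot exclude that the numbers pair the samples. With the replicate block 5 members were called in promyelocytes and 6 in granulocytes, as without it. Counts were low and intervals wide for *RGS16* in granulocytes and for *RGS3* in both cell types.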
